A study of Mus musculus with 60 samples.

Results

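Hippocampal RNA-seq libraries were compared by their level of Pttg1, which was nearly absent in some mice and present in others. A library was placed in the absent class when Pttg1 was under 1 RPKM (reads per kilobase of gene, scaled for depth by the authors) and in the high class when it was over 8 RPKM. The classes held 4 absent and 5 high libraries, so 9 of the 18 RNA libraries and of the 60 samples in the series. The other 9 libraries lay between the thresholds. They are called middle here. They were not in the fit of the main comparison, but they counted in the mean of 0.5 RPKM that a tested gene had to reach.

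All libraries came from hippocampal tissue of 30-week-old mice on a mixed background, 50% CBA and 50% C57BL/6 per the labels. WT are wild-type mice, and R6/1 mice carry a transgene with exon 1 of human huntingtin and an expanded CAG repeat, a model of Huntington's disease. The absent class held WT replicates 1, 3 and 5 and R6/1 replicate 3. The high class held WT replicates 6, 8 and 9 and R6/1 replicates 7 and 8. The middle class held 3 WT and 6 R6/1 libraries. The labels describe 9 independent biological replicates per genotype and name no treatment. Libraries held between 12299434 and 16736544 reads on genes.

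Pttg1 encodes securin, which binds and restrains separase, the protease that cuts the cohesin ring between sister chromatids. At anaphase the anaphase-promoting complex marks securin for destruction, separase is freed and the chromatids part. Securin has also been described as a partner of p53 and as an activator of transcription. Most cells of the adult hippocampus do not divide, apart from the neural progenitors of the dentate gyrus and some glia.

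The mouse Pttg1 gene lies on chromosome 11 of build NCBIM37, from 43233752 to 43239753 on the minus strand, and is protein-coding. It lay in no deposited lamin B1 domain of either genotype, that is, in none of the chromatin regions found in contact with the lamina at the nuclear rim. The promoter from RefSeq is shown because the level of this transcript defines the classes. It spans 300 bases, chr11:43425932-43426231 on the minus strand of GRCm38.p6, and capitals mark the 50 bases from the annotated start onward.
Pttg1: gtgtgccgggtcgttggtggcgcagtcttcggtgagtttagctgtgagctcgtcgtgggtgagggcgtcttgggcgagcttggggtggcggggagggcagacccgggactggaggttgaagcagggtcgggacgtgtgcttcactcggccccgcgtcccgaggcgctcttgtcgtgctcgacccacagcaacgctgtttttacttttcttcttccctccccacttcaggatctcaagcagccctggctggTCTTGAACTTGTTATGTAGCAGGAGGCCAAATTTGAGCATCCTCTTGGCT
This window is 60.3% G or C, against a median of 52.7% in the 32851 RefSeq mouse promoters of the same length. Searched on both strands, it held neither the CCAAT box (CCAAT, in 37.4% of these promoters), nor TTTGAA (17.9%) or TTCGAA (1.56%), the forms searched for the cell cycle homology region, nor the GC box (GGGCGG, 35.7%). These are descriptions of the letters in one reference sequence, not of the alleles carried by these mice.

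The Pttg1 level fell into 3 bands with empty space between them. In the absent class it was 0.146 RPKM in WT replicate 3, 0.181 in WT replicate 1, 0.197 in R6/1 replicate 3 and 0.291 in WT replicate 5. In the high class it was 9.41 RPKM in R6/1 replicate 7, 10.0 in R6/1 replicate 8, 10.5 in WT replicate 9, 10.8 in WT replicate 8 and 10.95 in WT replicate 6. The 9 middle libraries ran from 4.45 through a median of 5.44 to 5.92 RPKM.

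The values nearest the thresholds were 0.291 and 4.45 RPKM on either side of the lower one, and 5.92 and 9.41 RPKM on either side of the upper one. In reads, the absent libraries held 3 to 8 on Pttg1, the middle libraries 113 to 171 and the high libraries 225 to 275. Class means were 0.204 ± 0.0622 (SD, n = 4), 5.25 ± 0.540 (SD, n = 9) and 10.3 ± 0.629 RPKM (SD, n = 5). The middle mean was thus 50.9% of the high mean. The libraries were chosen by these Pttg1 values, so no test is given for Pttg1 between the classes.

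**Figure D1:**
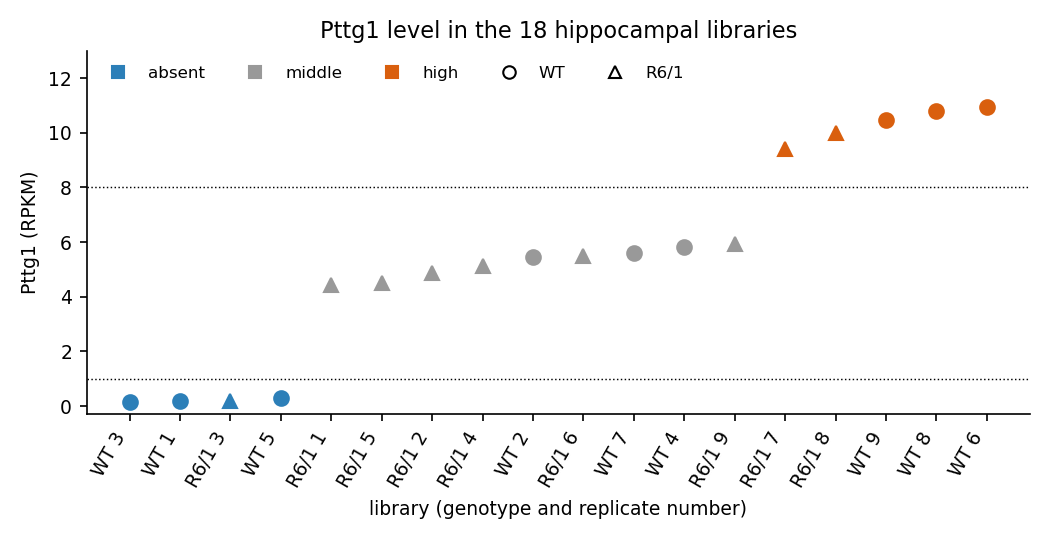
Pttg1 level (RPKM, linear axis) in each of the 18 RNA libraries, ordered by level; circles are WT, triangles R6/1, colours the 3 classes and dotted lines the thresholds at 1 and 8 RPKM. The 4 absent libraries lie at or under 0.291 RPKM, the 9 middle libraries between 4.45 and 5.92 and the 5 high libraries from 9.41 upward.

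Both genotypes occurred in every band, and genotype was no part of the rule. Pttg1 averaged 5.52 ± 4.57 RPKM in WT (SD, n = 9) and 5.56 ± 2.88 RPKM in R6/1 (SD, n = 9). An exact permutation test (two-sided, all 48620 assignments of 9 libraries to a genotype) gave p = 0.550 for the difference of 0.47 on the log2(RPKM + 0.5) scale. The authors' deposited table of the R6/1 against WT comparison lists Pttg1 with an adjusted p of 0.994.

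Few other genes passed the test between the classes. In the comparison of high with absent libraries, with genotype as a covariate, 22 of 14445 other genes passed an adjusted p of 0.05 (0.152% of the genes tested; limma on log2(RPKM + 0.5), Benjamini-Hochberg over all genes). Of these, 18 were lower in the high class (0.125% of genes tested) and 4 were higher (0.0277%). The genes with the largest differences that were lower in high libraries included Cldn2 and Kcnj13 of epithelia that make cerebrospinal fluid, and Foxj1, Drc7 and Rsph1 of motile cilia. Plxdc1 was among those higher. These genes were named partly for having no overlap between absent and high libraries after removal of the genotype difference. All 22 called genes had no such overlap, against 5.46% of all genes tested. The lack of overlap given below for called genes therefore adds no support to their calls. Of the 22, 3 (Mir6392, Mir7666 and Prr32) met the mean of 0.5 RPKM only through the class in which they were higher, which leaves 19, with 17 lower and 2 higher in the high class.

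At an unadjusted p under 0.05 there were 1462 genes (10.1%), 674 higher and 788 lower in the high class, and the median log2 difference over all genes was 0.00013. The number of calls depended on single libraries. It was 112 without WT replicate 6, 16 without R6/1 replicate 7, 11 without WT replicate 5, 10 without R6/1 replicate 3 or R6/1 replicate 8, 9 without WT replicate 9, 8 without WT replicate 1, 6 without WT replicate 8 and 5 without WT replicate 3.

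A list of 10 choroid plexus genes was also lower where Pttg1 was high. The choroid plexus is the epithelium in the ventricles that secretes cerebrospinal fluid, and it lies against the hippocampus. All 10 genes were lower in the high class (median log2 difference -1.81, from -3.72 for Ttr to -0.92 for Col8a1, against 0.00013 over all genes). All 10 had an unadjusted p under 0.05 (10.1% of all genes did), and 1, Kcnj13, passed the adjusted test (0.152% of all genes did). In bulk tissue, fewer cells of a type and less RNA per cell cannot be told apart.

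Ttr, the thyroid hormone carrier that choroid plexus makes in great amount, stood at 894 RPKM in WT replicate 5, 925 in WT replicate 1, 1035 in WT replicate 3 and 1696 in R6/1 replicate 3, the 4 absent libraries. In the high class it was 19.0 RPKM in WT replicate 8, 33.4 in R6/1 replicate 7, 33.9 in WT replicate 9, 491 in R6/1 replicate 8 and 555 in WT replicate 6. The middle libraries ran from 19.5 through 115 to 996 RPKM. The absent and high libraries did not overlap for Ttr, but 2 high libraries were well above the other 3, and its adjusted p was 0.186.

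The summed level of the 10 genes was 941 to 1764 RPKM in absent (median 1033), 27.8 to 1044 in middle (median 127) and 28.7 to 589 RPKM in high libraries (median 43.7), and none of the 10 genes was at 0 in every library. Ranked by the mean log2 level of the list, the absent libraries took places 1, 2, 3 and 5 of 18, and R6/1 replicate 4 of the middle class took place 4. The 5 high libraries took places 6, 9, 15, 16 and 17.

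**Figure D2:**
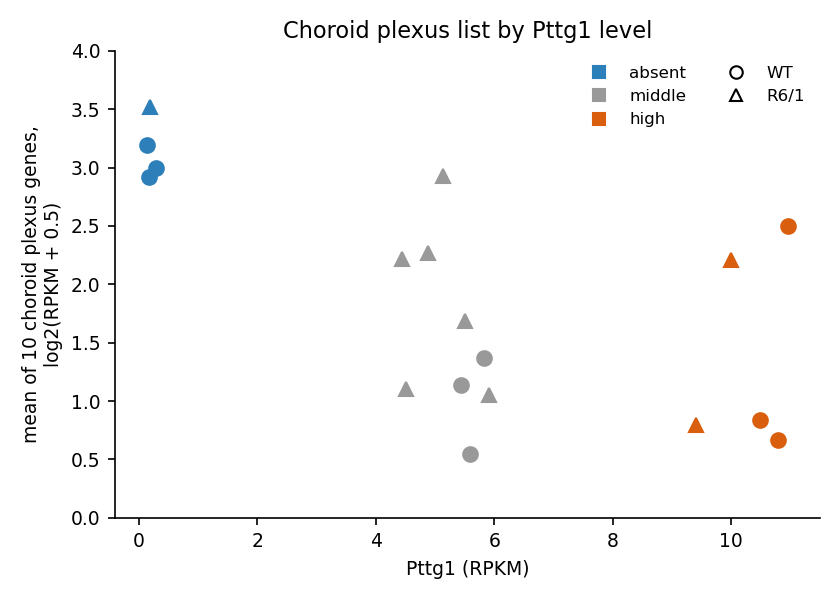
Mean of the 10 choroid plexus genes on the log2(RPKM + 0.5) scale against Pttg1 (RPKM), 1 point per library. The 4 absent libraries lie between 2.92 and 3.52, while the middle libraries spread from 0.55 to 2.93 and the high libraries from 0.66 to 2.50.

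The calls were then set beside this list. With the mean log2 level of the list as a further term in the fit of the 9 libraries, 3 genes were called (0.0208% of the genes tested), of which 1, Cpne2, was among the 22. The other 2, named here after their values were seen, were Dlk1 and Mir132. In all 18 libraries with the 3 classes, 39 genes were called between high and absent (0.27% of the genes tested), among them 16 of the 22. With the choroid plexus level added to that fit, limma called 0 genes and 766 (5.30%) had an unadjusted p under 0.05. This level itself separates the classes, at 2.92 to 3.52 in absent and 0.66 to 2.50 in high libraries, so the 2 terms share information. For Cpne2 the difference went from -1.07 to -1.20 while its unadjusted p by limma rose from 4.7e-06 to 0.00015. A call lost in these fits therefore does not show that the difference itself was lost. When the choroid plexus level was tested with genotype but without the classes, 156 genes were called (1.08% of the genes tested), 146 of them outside the list. Of the 22 genes, 13 were among these 156. Among those that were not, the slopes of Copz2 and Tspan33 lay near the threshold, with adjusted p of 0.0505 and 0.0592 by limma. Those of Vgll3, Plxdc1, Igfbp3, Cpne2 and Calb2 had adjusted p from 0.110 to 0.363, and Mir7666, with at most 2 reads in any library, had 0.602. All 22 genes had a slope with the opposite sign to their difference between high and absent. Because the level separates the classes, genes chosen for a gap between the classes tend to have this sign. It is therefore no separate support for a link. Kcnj13 is itself in the list, so its loss of the call follows in part from how the term is built. In the 18-library fit the added level left the differences of Cpne2, Calb2 and Igfbp3 as large as without it, and that of Vgll3 went from -1.52 to -1.39, though none was called. How much of each difference belongs to Pttg1 and how much to this list was not tested beyond these fits.

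Among the genes of fluid-secreting epithelium, Cldn2 forms cation- and water-permeable pores in tight junctions. It stood at 2.41 RPKM in WT replicate 1, 3.19 in WT replicate 3, 3.30 in R6/1 replicate 3 and 3.32 in WT replicate 5 of the absent class. In the high class it stood at 0.195 in WT replicate 8, 0.209 in WT replicate 9, 0.237 in R6/1 replicate 7, 0.927 in R6/1 replicate 8 and 1.24 RPKM in WT replicate 6. The middle libraries ran from 0.0621 through 0.466 to 2.40 RPKM. The absent and high libraries did not overlap, and the difference was -1.87 ± 0.29 on the log2(RPKM + 0.5) scale (SE, adjusted p = 0.0486 by limma). With the choroid plexus level in the 18-library fit the difference was -0.32 (adjusted p = 0.934).

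Kcnj13, an inwardly rectifying potassium channel of the choroid plexus, stood at 3.71 RPKM in WT replicate 1, 5.20 in WT replicate 5, 5.68 in R6/1 replicate 3 and 5.94 in WT replicate 3 in the absent class. The high libraries held 0.563 in WT replicate 8, 0.709 in WT replicate 9, 0.833 in R6/1 replicate 7, 1.82 in R6/1 replicate 8 and 2.22 RPKM in WT replicate 6. Again the classes did not overlap, and the difference was -1.82 ± 0.28 (SE, adjusted p = 0.0483 by limma). The middle libraries, 0.270 to 2.53 RPKM with a median of 0.656, were on average as low as the high ones.

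Car12, a membrane carbonic anhydrase, averaged 14.2 ± 4.06 RPKM in the absent class (SD, n = 4) and 6.48 ± 3.61 in the high class (SD, n = 5). Its raw values overlapped, since R6/1 replicate 3 of the absent class held 8.76 and WT replicates 6 and 8 of the high class held 10.7 and 8.91 RPKM. Within genotypes they did not, and the difference adjusted for genotype was -1.03 (adjusted p = 0.0399 by limma). Calml4, a calmodulin-like protein, was at 3.90 to 3.98 RPKM in the 4 absent libraries and at 0.592 to 1.69 RPKM in the 5 high libraries (log2 difference -1.49, adjusted p = 0.0262 by limma).

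The called genes Foxj1, Drc7 and Rsph1 are known from motile cilia, which ependymal cells and choroid plexus carry. They were grouped after their values were seen, and all 3 were also called by the choroid plexus level (adjusted p of 0.00295, 0.00010 and 0.0422 by limma). Foxj1, the transcription factor that switches on the motile cilium programme, lies on chromosome 11 from 116192018 to 116196713, 73.0 Mb from Pttg1. It stood at 4.07 RPKM in R6/1 replicate 3, 5.46 in WT replicate 1, 5.66 in WT replicate 3 and 5.82 in WT replicate 5. In the high class it was at 1.59 in WT replicate 8, 1.90 in WT replicate 9, 2.03 in R6/1 replicate 7, 2.49 in R6/1 replicate 8 and 2.604 RPKM in WT replicate 6. The absent and high values of Foxj1 did not overlap, with a log2 difference of -1.12 ± 0.14 (SE, adjusted p = 0.0195 by limma).

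Drc7, a subunit of the nexin-dynein regulatory complex of the axoneme, averaged 2.80 ± 0.730 RPKM in absent (SD, n = 4) and 0.722 ± 0.279 RPKM in high libraries (SD, n = 5), and its absent libraries ran from 1.83 to 3.605 RPKM above all 5 high libraries at 0.422 to 1.08. Rsph1, of the radial spoke head, ran from 3.48 to 5.82 RPKM in absent and from 1.25 to 2.28 RPKM in high libraries. The log2 differences were -1.45 for Drc7 and -1.01 for Rsph1, with adjusted p of 0.0315 and 0.0486 by limma. In the 18-library fit with the choroid plexus level they were -0.86 and -0.80, with adjusted p of 0.905 for both.

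Igfbp2, a secreted binding protein of insulin-like growth factors, had the smallest adjusted p of the genes named by rule. It lies on chromosome 1 from 72871077 to 72899048 on the plus strand. It stood at 25.8 RPKM in R6/1 replicate 3, 30.3 in WT replicate 1, 32.97 in WT replicate 3 and 37.5 in WT replicate 5, the absent libraries. The high libraries held 13.3 in R6/1 replicate 8, 13.5 in WT replicate 8, 15.0 in R6/1 replicate 7, 15.5 in WT replicate 9 and 17.9 RPKM in WT replicate 6. Every absent library was above every high library, with a 2.11-fold higher class mean and a log2 difference of -1.01 ± 0.10 (SE, adjusted p = 0.00321 by limma). The middle libraries ran from 13.3 through 16.8 to 25.2 RPKM, and 8 of the 9 lay at or under 17.4.

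Cd24a, a glycosylphosphatidylinositol-anchored surface glycoprotein found on ependymal cells and young neurons, was at 5.94 to 8.23 RPKM in absent and at 2.36 to 4.69 in high libraries (log2 difference -0.93, adjusted p = 0.00782 by limma). Cpne2, a calcium-dependent phospholipid-binding protein, was at 16.6 to 23.4 RPKM in absent and at 7.58 to 12.2 in high libraries (log2 difference -1.03, adjusted p = 0.0262). With the choroid plexus level in the 18-library fit Cpne2 had a difference of -1.20 (unadjusted p = 0.00015, adjusted p = 0.558), so its size did not shrink while the adjusted test was not passed. Vgll3, a cofactor of TEAD transcription factors, was at 0.891 RPKM in R6/1 replicate 3, 2.53 in WT replicate 3, 2.81 in WT replicate 5 and 3.94 in WT replicate 1, against 0.198 to 0.589 RPKM in high libraries (log2 difference -1.48, adjusted p = 0.0486). Its absent R6/1 library was thus the lowest of the class by a wide margin.

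Calb2, the calcium-binding protein calretinin of interneurons, mossy cells and thalamic cells, was at 15.7 RPKM in R6/1 replicate 3, 27.5 in WT replicate 3, 32.5 in WT replicate 1 and 42.4 in WT replicate 5. The high libraries held 10.6 in R6/1 replicate 8, 11.7 in R6/1 replicate 7, 16.6 in WT replicate 6, 17.7 in WT replicate 9 and 18.3 RPKM in WT replicate 8. The raw classes overlapped, and within each genotype the absent libraries were higher (log2 difference -0.78, adjusted p = 0.0486 by limma). Calb2 was 1 of 6 genes of the thalamus list, of which the other 5 had positive differences (median over the 6 of 0.25) and 0 passed the test.

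Plxdc1, a transmembrane protein with a plexin-like domain, was higher where Pttg1 was high. It was at 4.52 to 6.08 RPKM in absent and 7.53 to 9.06 RPKM in high libraries (log2 difference 0.58 ± 0.09, SE, adjusted p = 0.0486 by limma). Its middle libraries, 4.16 to 10.2 RPKM, covered both classes. In all 18 libraries with 3 classes it was not called, with an adjusted p of 0.104.

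Of the striatum list, Drd2, Ppp1r1b, Rgs9 and Adora2a had log2 differences from -0.27 to 0.28 between high and absent libraries, and 0 of these 4 genes passed the test.

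**Figure D3:**
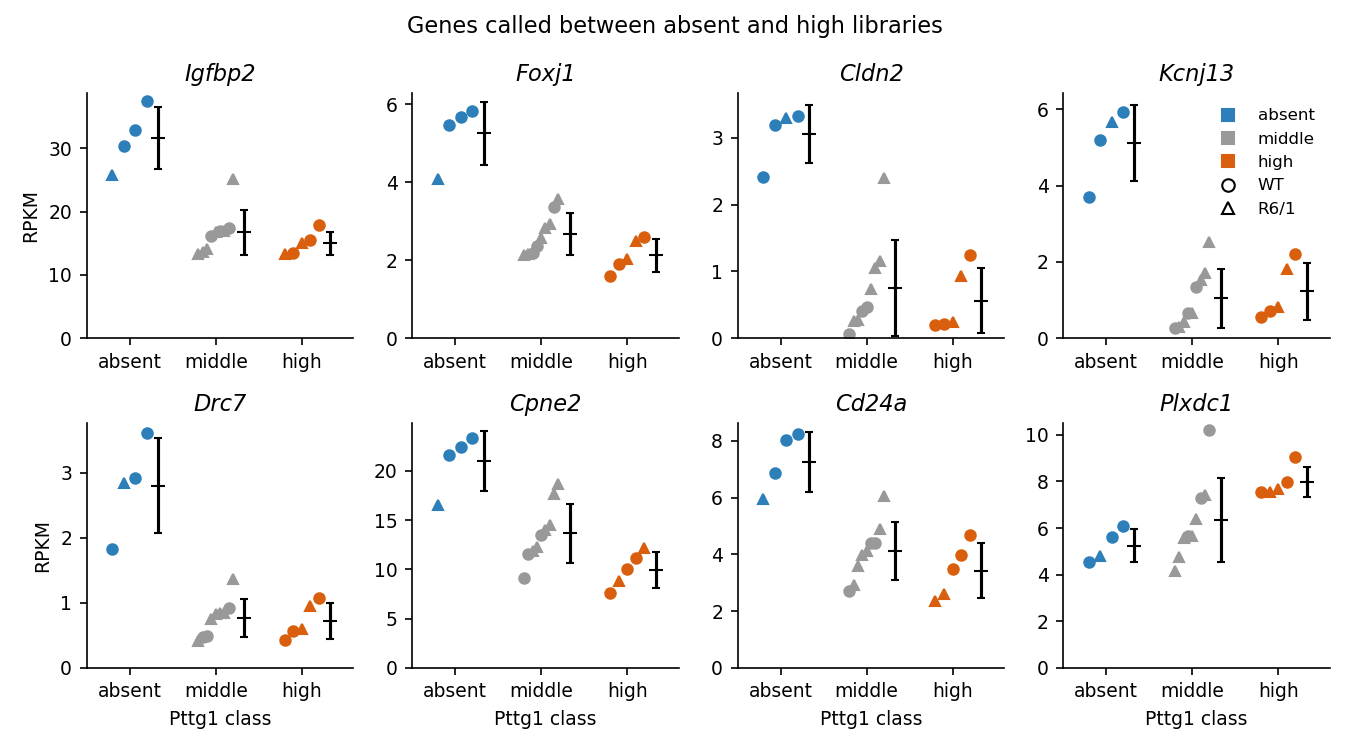
RPKM (linear axes from 0) of 8 called genes in the absent (n = 4), middle (n = 9) and high (n = 5) libraries; circles are WT, triangles R6/1, and bars show the mean and SD. Igfbp2 to Cd24a are higher in absent libraries and Plxdc1 in high libraries, and the middle libraries of Plxdc1 reach from 4.16 to 10.2 RPKM.

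The remaining 8 called genes fell outside the naming rule or its limit of 12 and were looked at after their values were seen. Prr32, Pla2g5 (a secreted phospholipase), Copz2 (a coatomer subunit), Igfbp3 (another binding protein of insulin-like growth factors), Spint2 (a serine protease inhibitor) and Tspan33 (a tetraspanin) were lower in the high class by 0.44 to 1.61 on the log2 scale. Mir6392 and Mir7666 were higher, but they held 0 reads in all 4 absent libraries and 1 or 2 reads in each high library, which is under the 3 reads that a count of 0 allows. No fold is given for these 2 features. In all, 5 of the 22 genes had a mean under 30 reads: these 2, Prr32, Calml4 and Pla2g5.

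The middle libraries were not in the fit that called the genes, though they counted in the mean of 0.5 RPKM that a tested gene had to reach. Their levels are given as a description. The 22 genes were chosen for a wide gap between absent and high, so that a middle mean inside this gap is no test of dose. After removal of the genotype difference, the middle mean of Kcnj13, Drc7, Cldn2 and Prr32 lay at 95.1% of the way from absent to high or further, that of Foxj1 at 75.1%, and that of Calb2 and Copz2 at 41.8% and 49.2%. Over the 22 genes the median was 72.3% (24.5% to 116%).

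The called genes varied among the middle libraries. The range of these 9 libraries divided by the gap between the absent and high means had a median of 0.908 over the 22 genes (0.459 to 3.18) and was 1 or more for 8 of them. With the Pttg1 level as a number in all 18 libraries, 97 genes were called (0.672% of the genes tested), among them 17 of the 22. Of these 97 genes, 55 (56.7%) were also called by the choroid plexus level, which is 35.3% of the 156 genes called by that level. With both the Pttg1 level and the choroid plexus level in that fit, limma called 0 genes, and 900 (6.23%) had an unadjusted p under 0.05.

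**Figure D4:**
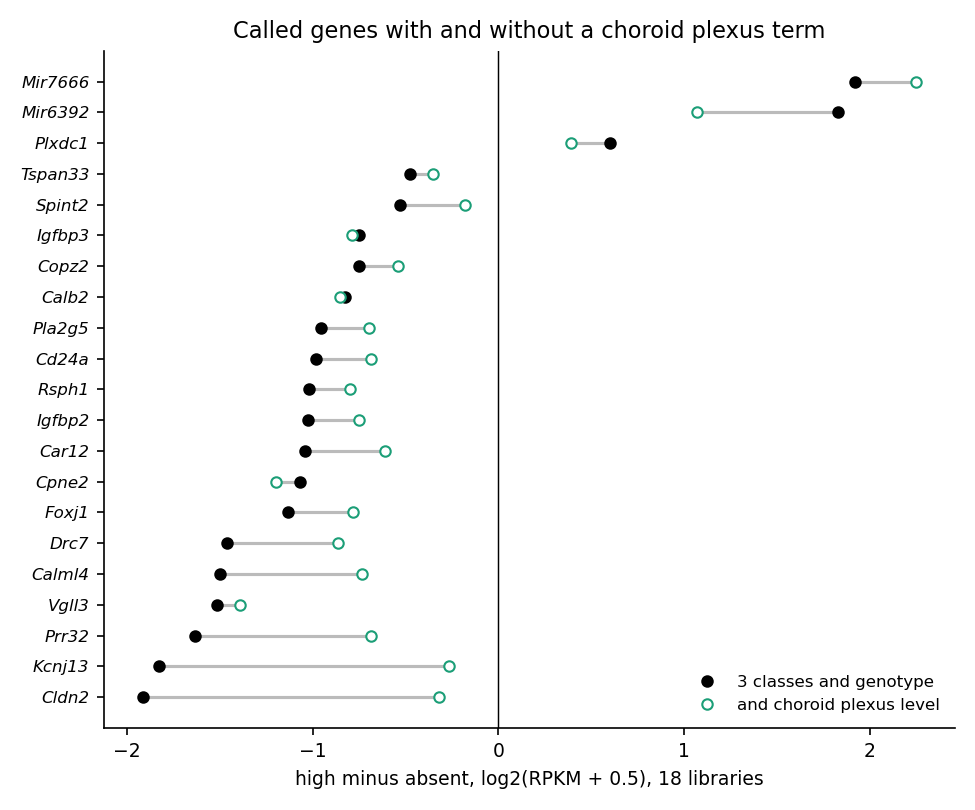
Log2 difference between high and absent libraries for 21 of the 22 called genes, from fits of all 18 libraries with genotype and the 3 classes (filled) and with the mean choroid plexus level added (open). Cldn2 goes from -1.92 to -0.32 and Kcnj13 from -1.83 to -0.26, whereas Cpne2 goes from -1.07 to -1.20, Calb2 from -0.82 to -0.85, Igfbp3 from -0.75 to -0.79 and Vgll3 from -1.52 to -1.39. Mir6392 and Mir7666 are drawn but held at most 2 reads in any library.

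The genotypes share no library, so each was also compared alone. In WT, 3 absent against 3 high libraries gave 8 called genes (0.0554% of the genes tested; 1193 at an unadjusted p under 0.05), 6 of them among the 22. All 8 had the same sign in R6/1, as did 55.4% of all genes and 69.0% of the genes with an unadjusted p under 0.05 in WT. In R6/1, with 1 absent library against 2 high ones, limma called 0 genes (1081 at an unadjusted p under 0.05), and the lone absent library is assumed there to vary like the high ones. A test of whether the difference between classes differs between genotypes called 0 genes (559 at an unadjusted p under 0.05).

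Vgll3 had the difference -1.84 in WT and -0.67 in R6/1, and Car12 had -0.81 and -1.51. For Igfbp2 the values were -1.08 and -0.85, and for Cldn2 -1.86 and -1.89. Unadjusted p of the interaction was 0.0132 for Vgll3 and 0.0238 for Car12, and neither passed adjustment over all genes.

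The neighbours of Pttg1 on chromosome 11 were described because position was no part of the rule. Within 10 Mb of its start 95 genes were tested and 0 were called by limma, while 10 (10.5%) had an unadjusted p under 0.05, near the 10.1% of all genes. Within 3 Mb, 24 genes were tested and 0 called, and 7 (29.2%) had an unadjusted p under 0.05. Of these 24 genes, 4 (16.7%), among them Lsm11 and Thg1l, had no overlap between the classes after removal of the genotype difference, against 5.46% of all genes, and the median absolute log2 difference of the 24 was 0.145 against 0.0771. In the 18-library fit with the choroid plexus level, 7 of the 24 (29.2%) had an unadjusted p under 0.05, against 5.30% of all genes. They were not the same 7 genes, since Lsm11 had an unadjusted p of 0.264 by limma in that fit. Neighbouring genes are not independent of each other.

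Thg1l, which adds a guanine to the 5′ end of histidine tRNA, starts 2.53 Mb from Pttg1. It stood at 2.35 RPKM in R6/1 replicate 3, 2.58 in WT replicate 5, 2.70 in WT replicate 1 and 2.76 in WT replicate 3 of the absent class. The high libraries held 1.37 in R6/1 replicate 7, 1.602 in WT replicate 8, 1.82 in WT replicate 9, 1.92 in R6/1 replicate 8 and 1.92 RPKM in WT replicate 6. The classes did not overlap, and the middle libraries at 1.80 to 2.44 RPKM overlapped both. The log2 difference of -0.46 ± 0.10 (SE) had an adjusted p of 0.140 by limma in the 9 libraries, 0.0271 in all 18 with 3 classes and 0.918 with the choroid plexus level added.

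On the other side, Gabrb2, a subunit of the main inhibitory receptor of the brain, starts at -1.01 Mb (toward lower coordinates). It was at 38.0 to 45.0 RPKM in absent and 39.0 to 55.2 RPKM in high libraries, so the classes overlapped, and its log2 difference of 0.18 had an adjusted p of 0.532 by limma.

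Of the other near genes with an unadjusted p under 0.05, Adra1b, an alpha-1 adrenergic receptor, had a difference of 0.52 that rested on WT replicates 6 and 8, at 3.20 and 2.12 RPKM against 0.992 to 1.26 in the other 7 libraries. Lsm11 of the U7 small nuclear ribonucleoprotein had -0.33, and Ccng1 (cyclin G1, a target of p53) and the protease Adam19 both had -0.21. Slu7, a splicing factor and the gene with the nearest start, was at 15.4 ± 0.676 RPKM in absent (SD, n = 4) and 16.0 ± 0.603 RPKM in high libraries (SD, n = 5), and its difference of 0.05 ± 0.05 (SE) did not pass the test.

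**Figure D5:**
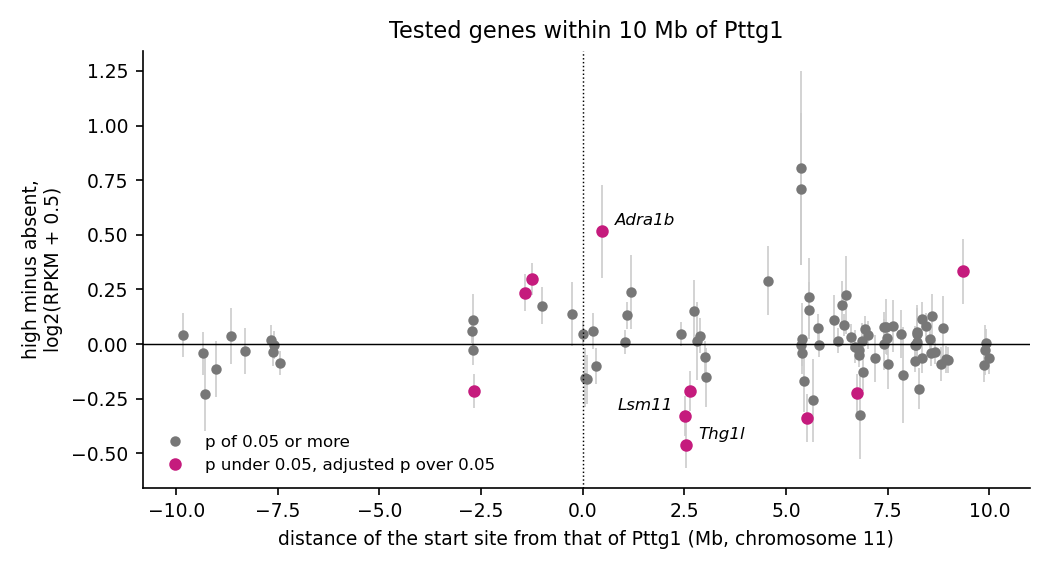
Log2 difference between high and absent libraries (bars are the SE of the fit) for the 95 tested genes whose start lies within 10 Mb of that of Pttg1, by distance in Mb. The 10 genes with an unadjusted p under 0.05 are coloured, 7 of them within 3 Mb, and 0 passed the adjusted test.

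Of the 22 called genes 20 could be placed on the genome, on 12 chromosomes. Chromosome 11 held 4 of these 20 (20%, against 8.20% of the tested genes that were placed): Igfbp3, Copz2, Plxdc1 and Foxj1. Their starts lie at -36.1, 53.5, 54.6 and 73.0 Mb from that of Pttg1. A deposited lamin B1 domain of either genotype held 4 of the 20, among them Cldn2, Vgll3 and Prr32, against 13.3% of the tested genes that were placed.

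For the securin pathway the counts of calls were 0, where 0.152% of all genes were called and 10.1% had an unadjusted p under 0.05, so that a count of 0 in lists this short is no result about them. Of 30 listed genes for securin, separase, the anaphase-promoting complex and the spindle checkpoint, 24 were tested and 0 were called by limma, with 0 at an unadjusted p under 0.05 and a median log2 difference of -0.02 (-0.15 to 0.30). Pttg1ip, the securin-interacting protein, was at 31.0 RPKM in absent and 28.2 RPKM in high libraries on average. Cdc20 and Fzr1, the activators of the anaphase-promoting complex, had differences of 0.18 and 0.07, with adjusted p of 0.766 and 0.785. Separase (Espl1) averaged 0.258 ± 0.0537 RPKM in absent (SD, n = 4) and 0.211 ± 0.0907 RPKM in high libraries (SD, n = 5) and was too low to be tested.

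Of the cohesion list, 14 of 19 genes were tested and 0 called by limma, with 0 at an unadjusted p under 0.05 and differences from -0.04 to 0.17. Smc1a, Smc3, Rad21, Stag1, Stag2 and Nipbl, the ring subunits and loader of cohesin, had differences of -0.04, 0.06, 0.06, 0.12, -0.0021 and 0.16. The list of genes described as responding to securin or p53 had 13 tested, 0 called by limma and 2 at an unadjusted p under 0.05 (Ccng1 and Sesn1), with a median of -0.04. Of the dividing-cell list, 3 of 10 genes were high enough to be tested and 0 were called, and the summed level of the 10 was 4.77 to 5.27 RPKM in absent, 3.62 to 6.92 in middle and 4.35 to 5.78 in high libraries. The 3 ranges overlapped.

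Among the 12 tested GABA-A receptor subunits 0 were called by limma and 3 had an unadjusted p under 0.05, among them Gabrd (log2 difference 0.43, adjusted p = 0.280 by limma). Of the lists for cells and regions, those of meninges and vessels, cortex, CA1, CA3, dentate granule cells, inhibitory neurons, astrocytes, oligodendrocytes, microglia and immature neurons had 0 called genes, as had the activity-regulated and sex-chromosome lists. Over all genes 0.152% were called and 10.1% had an unadjusted p under 0.05. Counts at an unadjusted p under 0.05 were 4 of 10 for meninges and vessels, 3 of 4 for cortex, 3 of 6 for CA1, 2 of 5 for CA3, 2 of 5 for astrocytes and 1 of 11 for activity-regulated genes. They were 1 of 7 for inhibitory neurons and 1 of 4 for sex-chromosome genes, and 0 for the dentate (6 tested), oligodendrocyte (5), microglia (5) and immature neuron (3) lists. Markers of CA1, CA3 and dentate granule cells were present in every library, with summed levels of 124 to 230 RPKM for the 6 CA1 genes, 49.0 to 108 for the 5 CA3 genes and 22.2 to 77.1 for the 6 dentate genes.

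In the meninges and vessels list the members with the largest differences were Igf2, Dcn and Lum, at -0.69, -0.66 and -0.56, while the vessel gene Flt1 had 0.29. The cortical genes Cux2 and Rorb had 0.41 and 0.29, and the astrocyte genes Gfap and Aqp4 had -0.53 and -0.25. None of these 8 genes passed the adjusted test (adjusted p from 0.152 to 0.459 by limma). The part of such tissue differences in the calls was not tested beyond the choroid plexus and activity terms.

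The difference between genotypes was little altered by the class. Over all 18 libraries with the 3 classes as a term, 6736 genes (46.6%) were called between R6/1 and WT. Without the classes there were 6980 (48.3%), of which 6474 (92.8%) were shared, and 0 had the opposite sign. Of the 22 genes called between high and absent libraries, 5 were also called between genotypes: Car12 and Calb2, lower in R6/1, and Igfbp3, Pla2g5 and Spint2, higher in R6/1.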

How the data were processed

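RNA-seq was made from hippocampus with a stranded messenger RNA kit, 9 libraries per genotype, per the labels. The authors deposited RPKM for 24508 gene symbols. The submitters' processing notes name TopHat, DESeq2 and build mm9, and the counter and annotation are not given in the sources used here. The authors' deposited table of R6/1 against WT holds a mean normalized count (a signal), a log2 fold change, a test score and p-values. The deposited lamin B1 domain lists hold 1 score per domain, which was not used. ATAC-seq and ChIP reads were not analysed here, and 0 columns of samples were left unused.

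Values multiplied by mean normalized count over mean RPKM were whole multiples of 1 step per library for 99.85% to 99.90% of values (tolerance 0.05 read), which gave the reads per library, from 12299434 to 16736544. Counting error alone limits low genes, and a count of 0 allows up to 3 reads.

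A script placed each library in its class from Pttg1. The 14446 genes averaging 0.5 RPKM or more over 18 libraries were fitted with limma 3.58.1 (R 4.3.3; lmFit, eBayes with a mean-variance trend, two-sided) on log2(RPKM + 0.5) with class and genotype, Benjamini-Hochberg over all genes, threshold 0.05. Fold changes on this scale understate the change of low genes. Pttg1 was left out of counts. Groups without overlap were judged after removing the genotype means. The test was tested on simulated data. Symbols were placed on NCBIM37 with GENCODE M1 by name (20512) or through RefSeq synonyms of GRCm38.p6 (1740), 90.8% of all symbols and 96.8% of the tested ones. Named genes were those with a call, an average of 1 RPKM or more and no overlap, up to 12 in each direction. To these came tested genes within 3 Mb of Pttg1, set members of the securin, cohesion and GABA-A lists, and called members of 16 lists for cell types, regions, activity and sex and 4 pathway lists. Some items are not reported here. The members and lists were chosen with earlier results of these data known. Alternatives were other pseudocounts, filters, scalings, terms, class bounds, library weights and leaving out libraries.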

Additional observations from a re-analysis of the deposited data

Results flagged for a closer look

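Of 48 groups of 4, 5 or 9 libraries examined for the named genes, 4 held a library far from the others. Chance alone would give about 2.4 if the groups were independent. They are not, since the genes share the same libraries, so the 2 numbers cannot be weighed against each other. Among the middle libraries, R6/1 replicate 4, the middle library with the highest choroid plexus level, held 2.40 RPKM of Cldn2 against 1.15 in the next. R6/1 replicate 1 held 25.2 RPKM of Igfbp2 against 17.4.

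In the absent class, WT replicate 1 was low for Cldn2, at 2.41 RPKM against 3.19 in the next, and WT replicate 5 was high for Rsph1, at 5.82 RPKM against 3.77. WT replicate 6 is the library without which the number of called genes is 112 and not 22, and it has the highest choroid plexus level of the high class.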

How the results depend on the processing

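The count of 22 called genes varied with the processing, and the cause was not tested except where fewer libraries or genes entered. It was 10 with a pseudocount of 0.1, 1 with no filter on low values, 14 with a mean of at least 2 RPKM, 9 with no mean-variance trend, 69 with library weights, 8 with no genotype term, 3 with the choroid plexus level as a term, 11 with the activity-regulated level as a term, 39 in 18 libraries with 3 classes, 97 with numeric Pttg1 and 8 with class bounds of 0.5 and 10 RPKM. Alternatives chosen after seeing the data gave 0 in 18 libraries with the choroid plexus level added to the classes, 0 with that level added to numeric Pttg1, 36 without microRNA and snoRNA features and 13 with each library scaled to its own reads. Leaving out 1 library gave 5 to 112. With bounds of 0.5 and 10 RPKM no R6/1 library was high, and without R6/1 replicate 3 no R6/1 library was absent. In both of these fits the difference between the classes therefore came from WT libraries alone. With quantile normalization 20 of the 22 were kept, and all 22 with a pseudocount of 1, with median centring and with library weights.

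In the same order, the 16 called genes on other chromosomes became 6, 0, 10, 6, 58, 5, 2, 7, 31, 85 and 5, then 0, 0, 31 and 9, and 3 to 97 when leaving out 1 library. Of genes within 10 Mb of Pttg1, 0 were called, but 1, Thg1l, was called in 18 libraries with 3 classes and 1 with numeric Pttg1. The interaction called 0 genes, and 1 with quantile normalization. The 156 genes called by the choroid plexus level became 25 with the classes as a term.

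Same-numbered WT and R6/1 libraries had correlations of their deviations from -0.0533 to 0.237, with 3 of 9 over 0.1 and 2 of 9 WT libraries closest to their own number, so the numbers were not taken to pair them. With the replicate block in 18 libraries 0 genes were called, 0 on other chromosomes, and Mir7666 reversed to -0.10 (adjusted p = 0.998). Over all called genes and alternatives, 292 of 606 values kept the call and 313 lost it. Pttg1 in R6/1 against WT stayed between 0.16 and 0.83 on the log2 scale on leaving out 1 library, with exact permutation p from 0.212 to 0.899. A planned fit with Xist was not run, because Xist was at most 0.0365 RPKM and Ddx3y at least 11.6 RPKM in all 18 libraries.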
